A study of Mus musculus with 2 samples.

Results

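The MHC class II genes described here are 7 of the 31053 genes listed in the files, taken by symbol: Cd74, H2-Aa, H2-Ab1, H2-Eb1, H2-DMa, H2-DMb1 and Ciita. All 7 were found, and each had UMIs (unique molecular identifiers, 1 for each captured transcript) in both libraries. They were read in single cells of the mouse cervix from 2 libraries, each made from 9 pooled C57BL6/129 females. Every mouse lost its ovaries at 7 to 8 weeks of age, recovered for 2 weeks and was then held for 15 days. The control mice had no treatment, neither vehicle nor empty pellet. The progesterone mice were first primed with estradiol (E2) in corn oil, injected under the skin at 100 µg a day on 2 days. A 25 mg pellet made to last 21 days, with a release of about 1 mg daily, then supplied their progesterone. Effects of E2, injection, pellet and progesterone cannot be told apart in these groups. The study is about the luminal lineage of the cervix, and the question taken up here is where these genes were read and how far they differed between the libraries. With 1 library per group there is no test between groups. All intervals in brackets are 95% intervals that cover counting error only.

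MHC class II molecules carry peptides from engulfed proteins to the surface of macrophages, dendritic cells and B cells, where CD4+ T cells read them. H2-Aa and H2-Ab1 encode the chains of the I-A molecule, and H2-Eb1 encodes the beta chain of I-E. Cd74 is the invariant chain that holds the groove until peptide is loaded. H2-DMa and H2-DMb1 encode the H2-M heterodimer, which exchanges the remnant of Cd74 for peptide. Ciita is the transactivator that switches on the others through a shared enhanceosome on their promoters. Some epithelia can make these genes as well, above all after interferon gamma.

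H2-Aa, H2-Ab1, H2-Eb1, H2-DMa and H2-DMb1 lie together on mouse chromosome 17 (GRCm38), with H2-DMb1 (ENSMUSG00000079547) at chr17:34153072-34160230 and H2-Ab1 (ENSMUSG00000073421) at chr17:34257689-34269419. H2-Aa (ENSMUSG00000036594) lies at chr17:34282744-34287823, H2-Eb1 (ENSMUSG00000060586) at chr17:34305867-34316674 and H2-DMa (ENSMUSG00000037649) at chr17:34119541-34139101. Ciita (ENSMUSG00000022504) is on chromosome 16, at chr16:10480059-10528418. No other annotated gene overlaps H2-DMb1. Its close relative H2-DMb2 starts upstream on the same strand, and reads from so similar a pair can be split by the counting. H2-Eb1 overlaps the antisense gene Gm20513, H2-DMa overlaps Brd2 and Ciita overlaps Dexi, each on the opposite strand, and whether counting used strand is not given in the sources used here.

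Promoter sequence of RefSeq (GRCm38.p6) is shown for H2-Aa, H2-Eb1 and H2-DMb1 and for H2-DMb2, the close copy of H2-DMb1, because class II promoters share the elements it holds. Those of Cd74, H2-Ab1 and Ciita were not used here. The Y box was searched as GATTGG and the X box by its class II consensus, on both strands of the 250 bases before each start. Capitals mark the hits, which for H2-Eb1 and H2-DMb1 begin with the X box. H2-Aa and H2-DMb2 held the Y box, and H2-Eb1 and H2-DMb1 held both. Of 2 H2-DMa starts, 1 held a Y box and the other neither element. For H2-DMb1 only 30 bases around the X box are given, since GENCODE places them in an exon. Its Y box follows 22 bases after the X box, against 21 bases in H2-Eb1.
H2-Eb1, chr17:34305757-34305826, plus strand: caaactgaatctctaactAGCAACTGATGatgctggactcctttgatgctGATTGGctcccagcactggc
H2-DMb1, chr17:34153086-34153115, plus strand: aggtttacctAGTAACTGATGatgctaggc
H2-DMb2, chr17:34145108-34145177, plus strand: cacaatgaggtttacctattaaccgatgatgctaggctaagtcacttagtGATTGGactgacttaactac
H2-Aa, chr17:34287853-34287922, minus strand: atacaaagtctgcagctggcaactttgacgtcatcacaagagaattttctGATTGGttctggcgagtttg
Of 32851 promoters in the same table, 14.6% held the Y box and 0.259% the X box. Both within 40 bases on the same strand stood in 4 promoters. A match is a description of letters, and a missing match says only that these letters are not in the window.

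The analysis kept 4579 control and 8541 progesterone cells, with median totals of 3733 and 4151 UMIs. The 2 libraries shared 19 cell barcodes. Classes were named from marker genes after clustering that left out the 7 genes and all listed genes. Macrophage-like cells (187 control and 335 progesterone) formed 1 cluster and had UMIs of all 9 macrophage markers in both libraries. The other classes used were monocyte-like (47 and 47), a mixed leukocyte cluster with B, T and plasmacytoid markers (45 and 35), neutrophil-like (347 and 445), luminal-like (609 and 2075) and squamous-like cells (2642 and 4339). No class was named as dendritic. In macrophage-like cells, dendritic markers summed to 292 CPM in control, with Xcr1 at 0 and 8 of 9 detected, and to 120 CPM in progesterone, with 9 of 9 detected. CPM are UMIs per 1000000 UMIs of the class.

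In the control library macrophage-like cells held most transcripts of every member, from 67.9% of UMIs for H2-DMb1 to 89.1% for H2-Eb1. In the progesterone library they held 69.5% to 83.0% for the other members but 38.4% for H2-DMb1, which had 28.7% of its UMIs in luminal-like and 22.6% in squamous-like cells. Cd74 (ENSMUSG00000024610, chromosome 18) stood at 18118 CPM [17659 to 18587] in control macrophage-like cells, from 5899 UMIs. In the progesterone library it stood at 14357 CPM [14104 to 14613], from 12301 UMIs. Each library has 1 value, and these intervals do not overlap. The 7 genes summed to 35061 CPM in control and 30008 CPM in progesterone. Of the control cells, 5 of 187 had no UMI of any member, and of the progesterone cells, 27 of 335.

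H2-Aa and H2-Eb1 differed from Cd74 in their ratio between the libraries, while the interval of H2-Ab1 overlaps that of Cd74. H2-Aa was at 4266 CPM in control and 4679 CPM in progesterone, a ratio of 1.10 [1.03 to 1.17]. H2-Eb1 was at 3956 and 4601 CPM, a ratio of 1.16 [1.09 to 1.24]. The ratio was 0.755 [0.719 to 0.794] for H2-Ab1, at 7227 and 5460 CPM, and 0.792 [0.768 to 0.818] for Cd74. For each UMI of Cd74 there were 0.218 UMIs of H2-Eb1 [0.205 to 0.232] in control and 0.320 [0.309 to 0.332] in progesterone macrophage-like cells. H2-Aa per Cd74 UMI was 0.235 [0.222 to 0.250] and 0.326 [0.314 to 0.338]. H2-Ab1 per Cd74 UMI was 0.399 and 0.380, with intervals that overlap.

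The peptide exchange genes and the transactivator were lower in the progesterone macrophage-like cells by these sums. H2-DMa was at 571 CPM in control and 368 CPM in progesterone, a ratio of 0.644 [0.535 to 0.776]. H2-DMb1 was at 636 and 398 CPM, a ratio of 0.626 [0.525 to 0.748]. Ciita was at 286 CPM from 93 UMIs and 146 CPM from 125 UMIs, a ratio of 0.511 [0.387 to 0.675]. Of the 7 members, 0 were past 2-fold in either direction. Among 6408 genes with at least 20 UMIs over both libraries, 10.9% were at least 2-fold higher and 13.9% at least 2-fold lower. The members' median log2 ratio was -0.40, and that of all these genes was -0.20.

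These ratios depended on which droplets were counted as macrophage-like. Keratins, the structural proteins of epithelium, gave 0.134% of UMIs in control and 0.694% in progesterone macrophage-like cells. Above 1% keratin were 4 control and 60 progesterone cells, and in those 60 cells, with a median of 4747 UMIs, Cd74 was at 1264 CPM. Without them (183 and 275 cells), Cd74 was at 18451 CPM in control and 21036 CPM in progesterone, so the ratio turned to 1.14 [1.10 to 1.18]. The ratio for H2-Ab1 turned to 1.09 [1.04 to 1.15], and those for H2-Aa and H2-Eb1 went to 1.57 [1.48 to 1.67] and 1.68 [1.57 to 1.79]. For H2-DMa it went to 0.942 [0.783 to 1.14], for H2-DMb1 to 0.899 [0.753 to 1.07] and for Ciita to 0.728 [0.551 to 0.964]. At this setting too 0 of 7 were past 2-fold, against 7.16% higher and 10.4% lower of 5292 genes.

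Clustering at Leiden resolution 2 left 169 control and 117 progesterone macrophage-like cells and put all 7 ratios above 1. H2-Aa stood at 2.09 and H2-Eb1 at 2.28, past 2-fold, while Ciita stood at 1.14. A stricter filter on cells, 500 genes as the minimum and 10% mitochondrial UMIs as the limit, gave 2.13 for H2-Aa and 2.29 for H2-Eb1. Both runs left unnamed a cluster that scored highest for macrophage markers. Its Krt5 passed 2000 CPM, the limit set for clusters outside the epithelium. That cluster held 15 control and 201 progesterone cells at resolution 2, and 2 and 49 with the stricter filter. These 2 runs thus also set aside keratin-bearing droplets, mostly of the progesterone library. The direction for Cd74, H2-Ab1, H2-DMa, H2-DMb1 and Ciita thus turned with the choice of cells. H2-Aa and H2-Eb1 had the highest of the 7 ratios and Ciita the lowest in all cells and under each of the 10 alternatives run for them. The part of keratin-bearing droplets in the ratios was not tested.

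**Figure D1:**
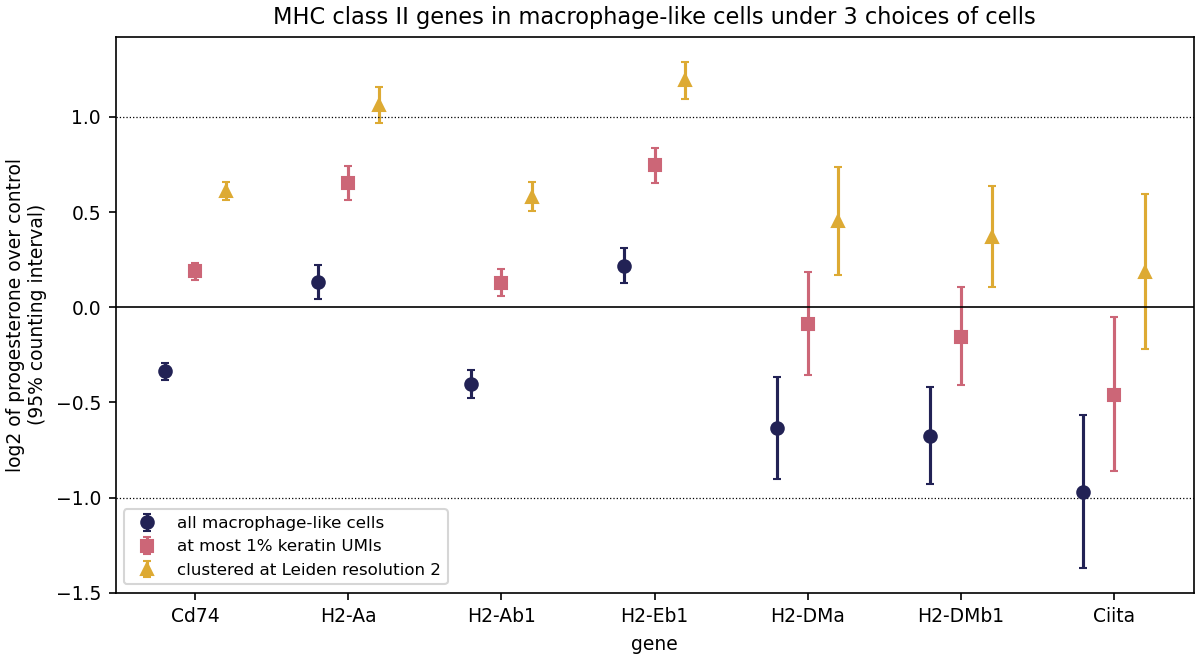
The log2 ratio of progesterone over control in macrophage-like cells is plotted for each of the 7 genes with its 95% counting interval, for all cells, for cells with at most 1% keratin UMIs and after clustering at Leiden resolution 2. Dotted lines mark 2-fold, and H2-Aa and H2-Eb1 lie highest under each choice, while Cd74 lies below 0 for all cells and above 0 for the other choices.

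Single macrophage-like cells spread widely. The summed level of the 7 genes in control cells had a lowest value of 0, a median of 37879 CPM and a highest of 99849 CPM. In progesterone cells the lowest was 0, the median 35450 CPM and the highest 198734 CPM, so the progesterone range covers the control range and reaches beyond it. The lower and upper quartiles were 21099 and 53311 CPM in control, and 4679 and 69720 CPM in progesterone, a wider middle range. With at most 1% keratin the median was 38660 CPM in control and 51410 CPM in progesterone.

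**Figure D2:**
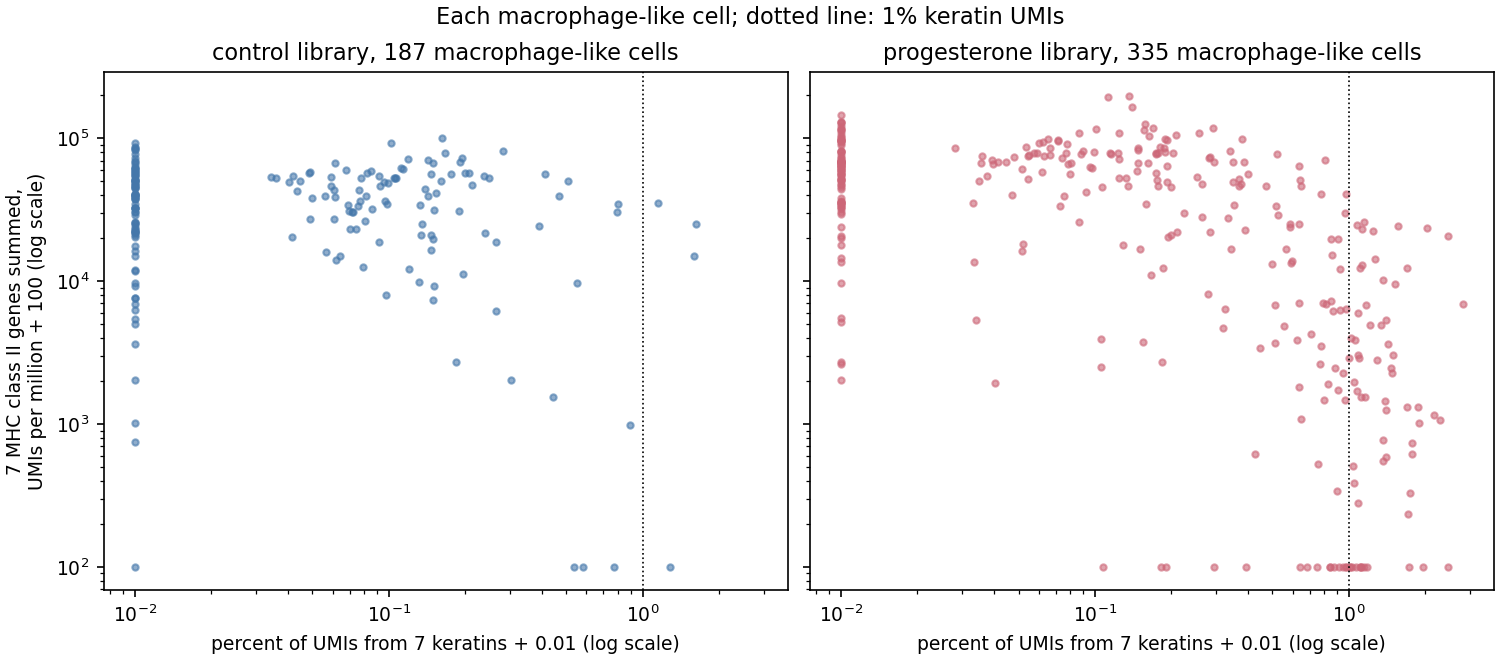
Each point is a macrophage-like cell, with its percent of UMIs from 7 keratins plus 0.01 on the x axis and the summed level of the 7 genes in CPM plus 100 on the y axis, both on log scales. The right of the dotted 1% line holds 4 control and 60 progesterone cells, most of the latter low in the 7 genes.

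Cells of the macrophage cluster in which no C1qa, C1qb or C1qc was read, the genes of the complement protein made by tissue macrophages, differed between the libraries. In control, 50 such cells had Cd74 at 18121 CPM, and the 137 cells with C1q had it at 18118 CPM. In progesterone, 54 such cells had Cd74 at 5307 CPM, against 17228 CPM in the 281 cells with C1q. Of those 54 cells, 22 had no UMI of any member. Set against the cells with C1q of the same library, 4 of 7 members (Cd74, H2-Aa, H2-Ab1 and H2-Eb1) were at least 2-fold lower and 0 higher, where 12.9% of genes were lower and 7.2% higher. In control 0 of 7 passed 2-fold in either direction, with 14.4% of genes lower and 7.29% higher. The control C1q-free cells differed in other markers too. Dendritic markers summed to 475 CPM (7 of 9 detected) there and 228 CPM (5 of 9) in cells with C1q. Monocyte markers summed to 1034 CPM (6 of 6) and 543 CPM (3 of 6). In progesterone the dendritic sums were 131 and 117 CPM and the monocyte sums 407 and 158 CPM. Markers of basal squamous cells summed to 8821 CPM in the 54 progesterone cells and to 6285 CPM in the 281 with C1q. In control they summed to 2246 CPM in the C1q-free cells and 1015 CPM in those with C1q. The part of these markers in the result was not tested.

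Monocyte-like cells came next. In both libraries 4 of 7 members were at least 2-fold higher in macrophage-like than in monocyte-like cells and 0 lower, against 19.1% of genes higher and 11.7% lower in control and 19% higher and 17.6% lower in progesterone. Cd74 was at 7450 CPM in control and 6042 CPM in progesterone, so macrophage-like cells had 2.43 times [2.21 to 2.68] and 2.38 times [2.21 to 2.55] as much. H2-Eb1 was at 1170 and 1102 CPM, further below the macrophage-like level, by 3.38 times [2.67 to 4.33] and 4.18 times [3.54 to 4.95]. H2-DMa, H2-DMb1 and Ciita were not distinguishable between these classes: the macrophage over monocyte ratio was 1.00 [0.699 to 1.48], 1.22 [0.841 to 1.82] and 1.13 [0.660 to 2.06] in control, and 0.938 [0.699 to 1.28], 1.12 [0.827 to 1.55] and 1.32 [0.768 to 2.42] in progesterone. Between libraries, 1 of the 7 members was at least 2-fold lower in monocyte-like cells, against 4.19% of 1480 genes, and 0 were higher, against 6.35%. The 1 member was Ciita, at 253 CPM from 16 UMIs and 111 CPM from 15 UMIs. Erythrocyte markers differed between these cells as well, at 79.1 CPM in control (2 of 5 detected, with Hba-a1, Hbb-bt and Alas2 at 0) and 13370 CPM in progesterone (5 of 5), and their part in the result was not tested.

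The mixed leukocyte cluster came after these. Cd74 was at 4531 CPM [4000 to 5113] in control and 2775 CPM [2407 to 3183] in progesterone. The make-up of the cluster differed between the libraries. B or plasma markers summed to 276 CPM in control (4 of 6 detected) and 15046 CPM in progesterone (6 of 6), and monocyte markers to 3394 and 1741 CPM (3 of 6 in each). Dendritic markers summed to 620 (6 of 9) and 177 CPM (5 of 9), and neutrophil markers to 1757 (8 of 8) and 68.0 CPM (2 of 8). The part of this in the Cd74 levels was not tested. H2-DMb1 was read there from 5 UMIs and 1 UMI, and Ciita from 4 UMIs and 1 UMI, too few to compare. In control 19 of 45 cells had no member UMI, and in progesterone 16 of 35.

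**Figure D3:**
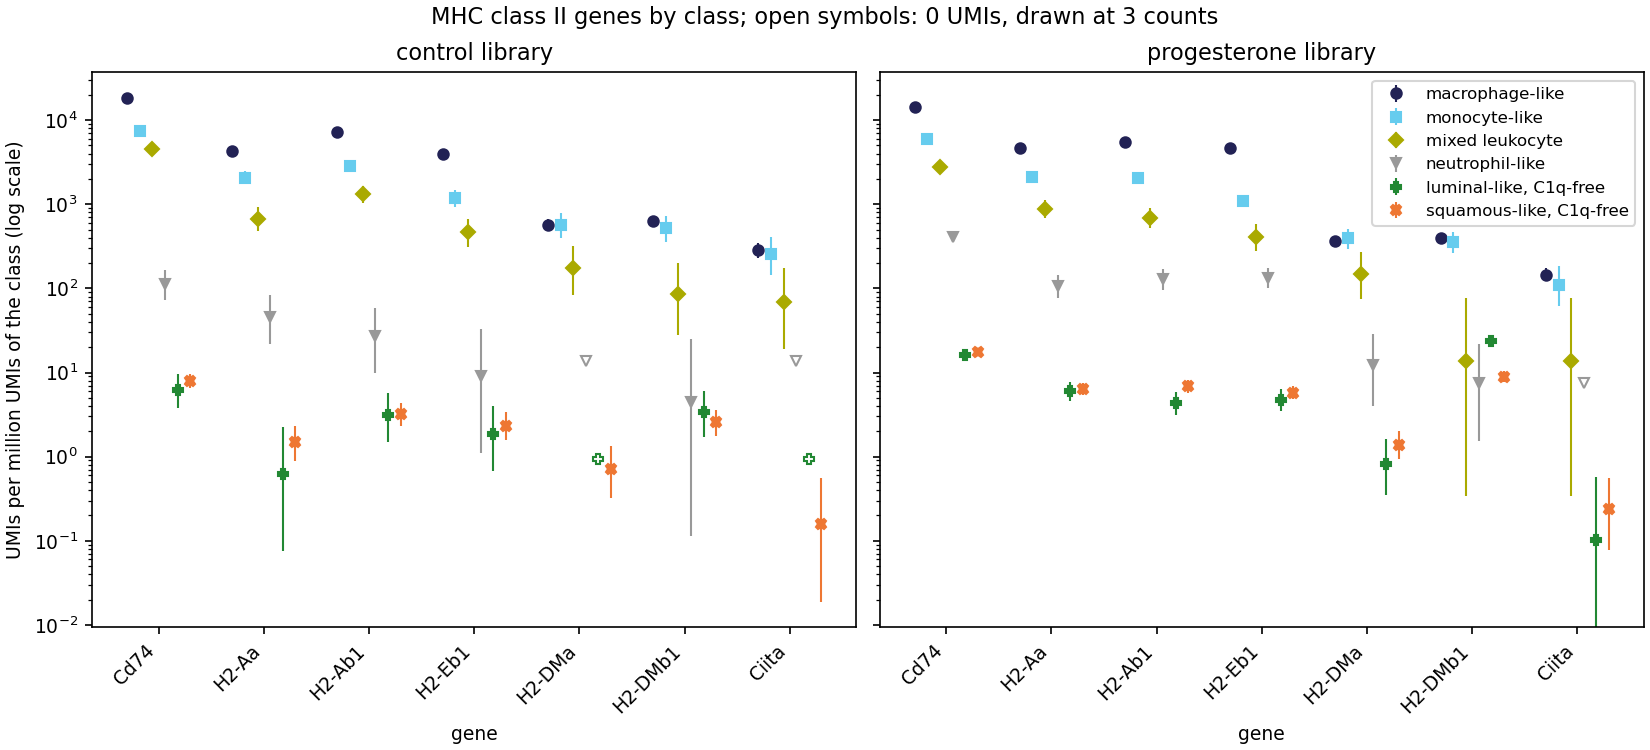
Levels of the 7 genes in 6 classes are given in CPM on a log axis, with 95% Poisson intervals, for the control (left) and progesterone (right) library. Macrophage-like, monocyte-like and mixed leukocyte cells follow in that order for Cd74, and in the progesterone library H2-DMb1 is higher in luminal-like than in squamous-like C1q-free cells.

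Neutrophil-like cells had few UMIs of any member. Cd74 was at 113 CPM from 25 UMIs in control and 412 CPM from 166 UMIs in progesterone, and Ciita had 0 UMIs in both. The C1q genes, which neutrophils are not known to make, were read beside them at 63.2 and 204 CPM. Cd74 per C1q UMI was 1.79 [0.893 to 3.72] in control and 2.02 [1.54 to 2.67] in progesterone neutrophil-like cells, and 2.06 and 1.84 in macrophage-like cells. The ratio of Cd74 to C1q thus did not differ between these classes beyond counting error. In the neutrophil-like cells with no C1q UMI, Cd74 was at 46.3 CPM [22.2 to 85.2] and 148 CPM [111 to 192].

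In luminal-like cells, which line the canal, and in squamous-like cells, the members were read far below the levels of macrophage-like cells. Over all progesterone luminal-like cells Cd74 was at 42.8 CPM, and over squamous-like cells at 37.2 CPM. In cells with no UMI of C1qa, C1qb or C1qc it was at 16.0 CPM [13.6 to 18.7] and 17.5 CPM [15.8 to 19.4]. In control the C1q-free levels were 6.19 CPM [3.78 to 9.56] from 20 UMIs and 7.97 CPM [6.50 to 9.68] from 102 UMIs. The luminal over squamous ratio of Cd74 in these cells was 0.916 [0.754 to 1.11] in progesterone and 0.776 [0.455 to 1.26] in control. Cd74 was thus not distinguishable between the epithelial classes in either library.

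Cd74 was higher in epithelial cells with more C1q UMIs. Progesterone luminal-like cells with 0, 1 and at least 2 C1q UMIs (1938, 86 and 51 cells) had Cd74 at 16.0, 224 and 602 CPM. Squamous-like cells of that library had it at 17.5, 230 and 697 CPM. Per C1q UMI there were 1.84 [1.57 to 2.16] UMIs of Cd74 in luminal-like cells and 1.84 [1.78 to 1.89] in macrophage-like cells of the progesterone library. In squamous-like cells the value was 2.26 [1.99 to 2.56], above that of macrophage-like cells. In control luminal-like cells Cd74 was at 12.5 CPM, beside C1qa at 1.53, C1qb at 0.918 and C1qc at 0.612 CPM. In control macrophage-like cells these 4 genes were at 18118, 3732, 3735 and 1336 CPM. Cd74 thus stood higher beside C1q in the control luminal-like cells, though 8 of those cells had 1 C1q UMI and 1 had more.

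In luminal-like cells H2-DMb1 did not follow C1q in this way. Over all progesterone luminal-like cells it was at 24.2 CPM, and in the C1q-free ones at 23.8 CPM [20.9 to 27.1], from 232 UMIs in 1938 cells. In squamous-like cells it was at 9.08 CPM over all and at 8.94 CPM [7.70 to 10.3] in the C1q-free ones, from 187 UMIs in 4116 cells. Setting aside the cells with C1q removed most Cd74 UMIs from luminal-like cells, 450 before and 156 after, but few of H2-DMb1, 255 before and 232 after. By 0, 1 and at least 2 C1q UMIs, H2-DMb1 was at 23.8, 21.3 and 41.4 CPM in luminal-like cells. The intervals of the latter values, [10.2 to 39.2] and [22.1 to 70.8], both overlap that of the first. In squamous-like cells it was at 8.94, 4.79 [1.31 to 12.3] and 26.2 CPM [12.6 to 48.2]. The last, from 10 UMIs in 68 cells, lies above the first, and the interval of the middle value overlaps it.

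**Figure D4:**
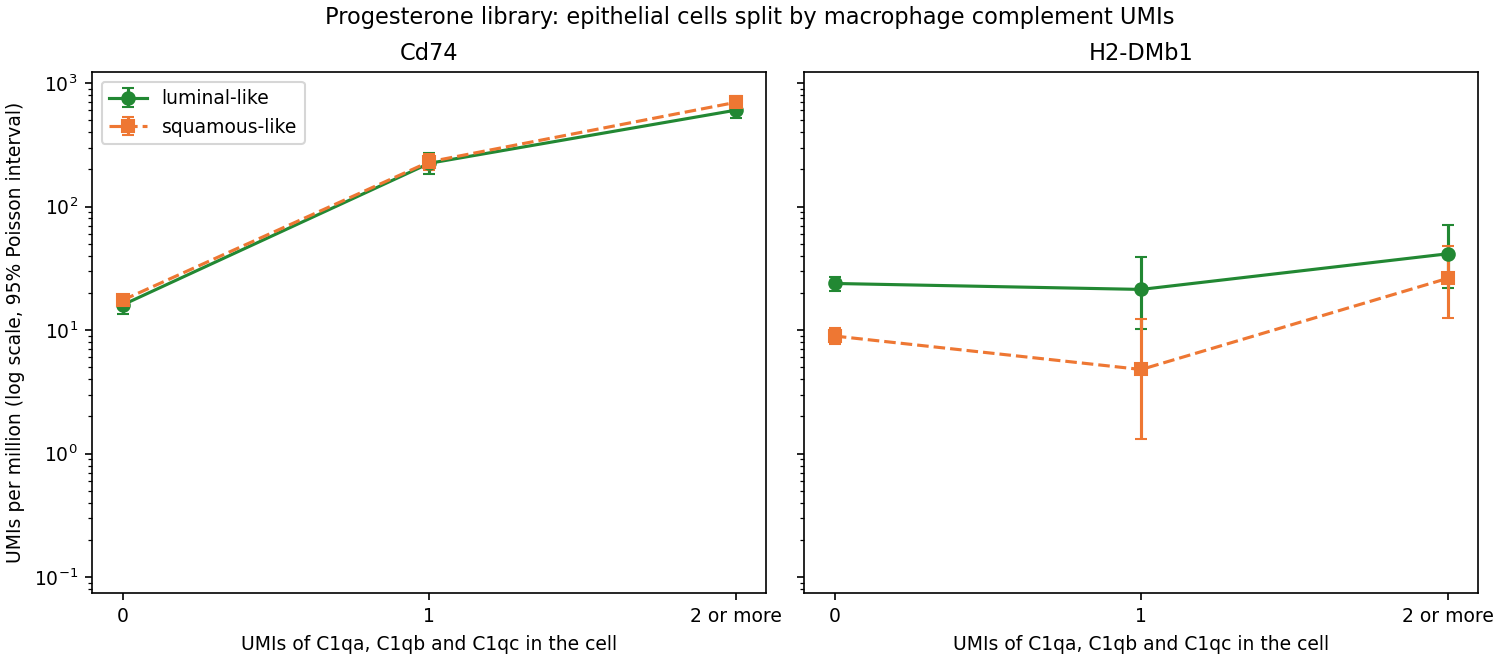
Cd74 (left) and H2-DMb1 (right) in CPM, on a log axis with 95% Poisson intervals, are plotted for progesterone luminal-like and squamous-like cells with 0, 1 and 2 or more UMIs of C1qa, C1qb and C1qc. Cd74 goes from 16.0 to 602 CPM in luminal-like cells, while H2-DMb1 goes from 23.8 to 41.4 CPM there and from 8.94 to 26.2 CPM in squamous-like cells.

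Per C1q UMI, H2-DMb1 was higher in the epithelial classes than in macrophage-like cells. It was at 0.0509 [0.0455 to 0.0567] in progesterone macrophage-like cells, 0.551 [0.461 to 0.656] in squamous-like and 1.05 [0.873 to 1.25] in luminal-like cells. In control the values were 0.0722 [0.0624 to 0.0832], 0.579 [0.365 to 0.904] and 1.10 [0.424 to 2.89]. Progesterone fibroblast-like cells had H2-DMb1 at 17.8 CPM, beside C1qa at 5.09, C1qb at 10.2 and C1qc at 0 CPM. Control fibroblast-like cells had it at 0, beside C1qa at 22.3 and C1qb at 11.2 CPM. Progesterone erythrocyte-like cells had it at 15.2 CPM, beside C1qa at 38.7, C1qb at 34.5 and C1qc at 8.28 CPM. H2-DMb1 was thus high beside C1q outside the epithelial classes too in the progesterone library, though the fibroblast levels rest on few UMIs. H2-DMa, which encodes its partner chain, was at 0.0470 [0.0418 to 0.0526] per C1q UMI in progesterone macrophage-like cells, 0.0656 [0.0369 to 0.109] in luminal-like and 0.107 [0.0747 to 0.149] in squamous-like cells. In C1q-free luminal-like cells of the progesterone library there were 232 UMIs of H2-DMb1, 8 of H2-DMa and 1 of Ciita. H2-DMb2, the neighbouring copy, had 1 UMI in all progesterone luminal-like cells, 1 in squamous-like cells and 28 in macrophage-like cells.

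H2-DMb1 was also the member with a higher luminal than squamous level. In C1q-free progesterone cells the luminal over squamous ratio was 2.66 [2.19 to 3.25] for H2-DMb1, with 18.1% of 12720 genes at least 2-fold higher in luminal-like cells. It was the 1 of 6 measured members past 2-fold in that direction, a count near the background, and 0 were lower, against 10.8% of genes. The ratio for H2-Ab1 was 0.631 [0.436 to 0.895], and those for H2-Aa and H2-Eb1 were 0.930 [0.671 to 1.27] and 0.817 [0.568 to 1.16]. In control the H2-DMb1 ratio was 1.32 [0.602 to 2.68] from 11 and 33 UMIs, which was not distinguishable from 1 at this depth. In control 0 of 5 measured members were higher, against 13.6% of genes, and 1 was lower, H2-Aa, from 2 and 19 UMIs, against 12.5%. Other ways of treating the cells, given with the processing alternatives, left the progesterone ratio between 2.03 and 3.30.

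Counted per cell rather than as CPM, H2-DMb1 again differed between luminal-like and squamous-like cells, while the Cd74 intervals of these 2 classes overlap. In C1q-free progesterone cells there were 8.05 Cd74 UMIs per 100 luminal-like cells [6.84 to 9.42], 8.89 per 100 squamous-like cells [8.00 to 9.85] and 13.3 per 100 neutrophil-like cells [10.0 to 17.3]. H2-DMb1 was at 11.97 per 100 luminal-like cells [10.5 to 13.6] and 4.54 per 100 squamous-like cells [3.92 to 5.24]. In 413 neutrophil-like cells it had 0 UMIs, which allows up to 0.726 per 100 cells. Cd74 was at 5.50 per 100 fibroblast-like cells [2.02 to 11.98] and at 79.3 per 100 erythrocyte-like cells [64.3 to 96.9], the latter from 96 UMIs in 8 of 121 cells. A single erythrocyte-like cell held 131 of the 169 UMIs of the 7 genes in that class. The interval does not cover this, so the erythrocyte level rests largely on 1 cell. Median depth was 4820 UMIs in these luminal-like, 4753 in squamous-like and 777 in neutrophil-like cells. In fibroblast-like cells it was 2582 UMIs, and in erythrocyte-like cells 4896. Fibroblast-like cells had 6.42 H2-DMb1 UMIs per 100 cells [2.58 to 13.2], from 7 UMIs in 109 cells, and erythrocyte-like cells 7.44 [3.40 to 14.1], from 9 UMIs in 121 cells, and both intervals overlap those of the epithelial classes. In CPM over all progesterone cells of a class, H2-DMb1 was at 24.2 in luminal-like, 17.8 in fibroblast-like and 15.2 in erythrocyte-like cells. Basal and suprabasal squamous-like cells had 10.7 and 6.23 CPM.

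**Figure D5:**
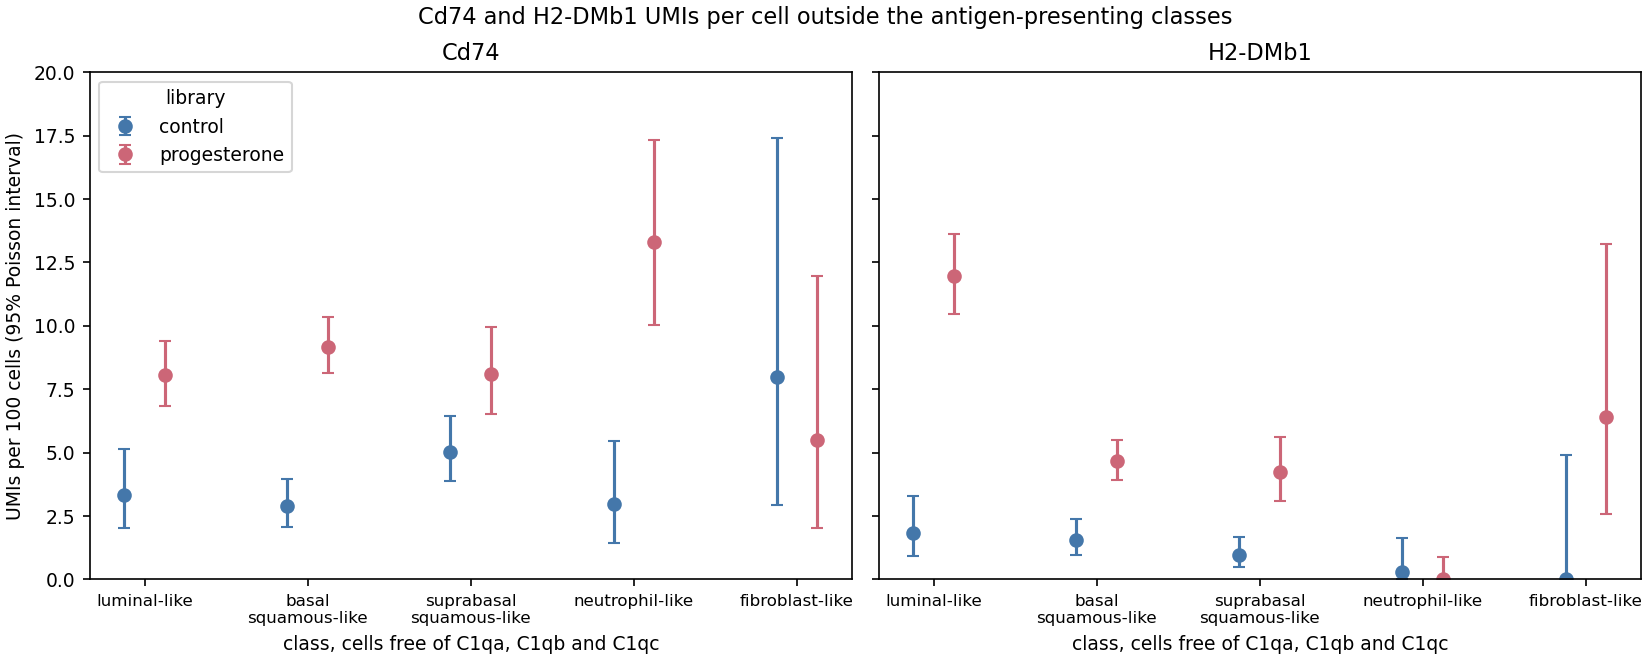
UMIs per 100 cells with 95% Poisson intervals are plotted for Cd74 (left) and H2-DMb1 (right) in C1q-free cells of 5 classes, control and progesterone side by side. H2-DMb1 reaches 11.97 per 100 in progesterone luminal-like cells and 0 in neutrophil-like cells, while Cd74 is at 8.05 and 13.3 per 100 in the same classes.

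Shares of cells with a UMI, after thinning each cell to 2000 UMIs, gave the same order. H2-DMb1 was read in 4.89% [3.91 to 6.05] of 1655 progesterone C1q-free luminal-like cells and in 1.75% [1.35 to 2.22] of 3780 squamous-like cells. Without thinning the shares were 10.8% and 4.397%. In fibroblast-like and erythrocyte-like C1q-free cells the thinned shares were 2.86% [0.348 to 9.94] of 70 cells and 1.01% [0.0256 to 5.50] of 99 cells. The squamous share lies between these, so expression was not read from it. The luminal share lies above both, though within the interval of each. For Cd74 the shares were 2.66% in luminal-like and 2.78% in squamous-like cells, against 1.43% [0.0362 to 7.70] in fibroblast-like and 4.04% [1.11 to 10.0] in erythrocyte-like cells. These references rest on 1 and 4 cells with a UMI, and expression was not read from the epithelial shares of Cd74. Thinning left out 283 luminal-like, 336 squamous-like, 39 fibroblast-like and 22 erythrocyte-like cells.

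H2-DMb1 UMIs were spread over many luminal-like cells. In the progesterone library 209 C1q-free cells held the 232 UMIs, and no cell held more than 3. Cd74 was read in 5.74% [3.002 to 9.81] of these 209 cells and in 5.38% [4.36 to 6.55] of the 1729 without H2-DMb1, shares that do not differ beyond counting error. Median depth was 6104 and 4655 UMIs in these sets. Of the 1938 cells, 11 held at least 5 UMIs of the 7 genes summed.

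Between the libraries, 4 of the 5 members measured in C1q-free luminal-like cells were at least 2-fold higher in progesterone, against 18.5% of 11537 genes, and 0 were lower, against 7.23%. H2-DMb1 was at 3.40 CPM from 11 UMIs in control and 23.8 CPM from 232 UMIs in progesterone, a ratio of 7.00 [3.84 to 14.2]. Cd74 had a ratio of 2.59 [1.62 to 4.35], H2-Eb1 of 2.54 [1.08 to 7.29] and H2-Aa of 9.62 [2.55 to 81.4], the last from only 2 control UMIs. H2-Ab1 had a ratio of 1.39 [0.688 to 3.12]. H2-DMa and Ciita, with 0 control UMIs, fell under the limit of 20 UMIs. The members' median log2 ratio was 1.34, and that of all genes 0.31. Markers of other classes differed between these cells too, with neutrophil markers (8 of 8 detected in both) at 4025 and 329 CPM and basal squamous markers (7 of 7 in both) at 5120 and 1851 CPM. Suprabasal squamous markers were at 5184 CPM (8 of 8) and 1680 CPM (7 of 8, with Dsg1a at 0). Their part in the ratios was not tested.

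Different luminal clusters made up the class in the 2 libraries. Control luminal-like cells were mostly in cluster 6 (383 of 609), led by Sprr2d and Psca, and progesterone cells mostly in clusters 8 (1053) and 10 (936), led by Agr2 and Clca1. Within cluster 10, C1q-free cells had H2-DMb1 at 10.6 CPM [4.57 to 20.9] in control and 23.9 CPM [19.3 to 29.3] in progesterone, a ratio of 2.26 [1.10 to 5.39]. Control cells of cluster 6 had it at 1.22 CPM from 3 UMIs, and progesterone cells of cluster 8 at 26.9 CPM [22.5 to 31.8]. Control C1q-free squamous-like cells had H2-DMb1 at 2.58 CPM [1.78 to 3.62], below the interval of control cluster 10. The whole control luminal class was not distinguishable from those squamous-like cells. The ratio within cluster 10 lies below the interval of the ratio over the whole class, though the 2 intervals overlap. It rests on 8 control UMIs, which are also counted in the whole class. The part of the cluster make-up in the whole-class ratio was not tested.

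In C1q-free squamous-like cells, 5 of the 6 members measured were at least 2-fold higher in progesterone, against 11% of 12502 genes, and 0 were lower, against 6.16%. The ratio was 3.47 [2.38 to 5.18] for H2-DMb1, from 33 and 187 UMIs, and 2.19 [1.76 to 2.76] for Cd74. It was 4.31 [2.66 to 7.39] for H2-Aa, 2.13 [1.498 to 3.10] for H2-Ab1 and 2.47 [1.64 to 3.81] for H2-Eb1. H2-DMa, with 9 and 29 UMIs, had 1.97 [0.908 to 4.73]. The members' median log2 ratio was 1.21, and that of all genes 0.13. In basal cells 6 of 6 measured members were higher and 0 lower, against 8.31% and 5.63% of genes. In suprabasal cells 3 of 5 were higher and 0 lower, against 10.6% and 5.79%. Cd74 there was at 8.06 and 12.2 CPM, a ratio of 1.51 [1.09 to 2.12], and H2-Ab1 had 1.31 [0.751 to 2.32]. Few suprabasal cells held much of the members' UMIs, which the intervals do not cover. In control, 4 of 1253 cells had at least 5 member UMIs and held 43.1% of the 137, with 26 in 1 cell. In progesterone, 9 of 1110 cells had at least 5 and held 31.6%. For H2-DMb1 the basal ratio was 2.45 [1.54 to 4.08], and the suprabasal ratio was 4.15 [2.17 to 8.60]. As in the luminal class, different clusters made up the squamous class in each library. Clusters 1, 2 and 3 held 330, 788 and 759 control cells but 0, 23 and 57 progesterone cells. Clusters 0, 7 and 9 held 159, 404 and 135 control cells and 1158, 1224 and 1656 progesterone cells. Over all neutrophil-like cells, where Cd74 kept the macrophage ratio to C1q, the Cd74 ratio was 3.65 [2.39 to 5.81]. The squamous ratios here are from C1q-free cells, a different choice. In C1q-free neutrophil-like cells Cd74 was at 46.3 CPM from 10 UMIs in control and 148 CPM from 55 UMIs in progesterone. Cd74 was thus higher in progesterone in that class too. The part of free macrophage RNA in the epithelial ratios was not tested.

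Other genes of the pathway were counted from lists. In macrophage-like cells, of 9 measured genes that work beside the members, 0 were at least 2-fold higher and 3 at least 2-fold lower in progesterone, beside 10.9% and 13.9% of all genes. These were H2-Oa, a chain of the H2-M inhibitor, the co-stimulator Cd86 and March1, which marks class II for turnover. They were read from 28, 42 and 22 progesterone UMIs, and at most 1% keratin left March1 alone past 2-fold. Of 11 measured interferon gamma response genes, 4 were higher and 0 lower, beside the same shares: Igtp, Irgm1, Iigp1 and the chemokine Cxcl9, at 6.14 CPM from 2 UMIs and 64.2 CPM from 55 UMIs. The 54 C1q-free progesterone cells held 35 of those 55 UMIs of Cxcl9 and 35 of the 40 UMIs of Iigp1. At most 1% keratin left 9 measured, with Irgm1 and Cxcl9 higher. Of 15 measured MHC class I genes, 0 passed 2-fold.

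In C1q-free luminal-like cells 1 of 6 measured class II accessory genes was higher and 1 lower, where 18.5% of all genes were higher and 7.23% lower, so the count of higher genes was near the background. Ctss, the cathepsin that trims Cd74, was at 6.50 CPM in control and 15.3 CPM in progesterone, a ratio of 2.35 [1.49 to 3.92]. Ctsl, another lysosomal protease, was at 780 and 212 CPM, a ratio of 0.272 [0.256 to 0.288]. Of 15 measured class I genes, 3 were higher and 0 lower, also near the 18.5% of all genes. B2m, the light chain of class I, was at 53.2 and 164 CPM, a ratio of 3.08 [2.63 to 3.62], H2-T23 had 2.36 [1.90 to 2.95] and the peptide transporter Tap2 3.68 [2.04 to 7.30]. Of 10 measured interferon gamma response genes, 2 were higher, Irf8 and Iigp1, and 1 lower, Socs1, near the background in both directions. The transcription factor Irf8 was at 1.86 CPM from 6 UMIs and 17.5 CPM from 170 UMIs, a ratio of 9.40 [4.23 to 26.0].

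In C1q-free squamous-like cells, where 11% of all genes were higher and 6.16% lower, 0 of 6 accessory genes passed 2-fold. Of 16 class I genes, 1 was higher, B2m, with a ratio of 3.23 [2.84 to 3.68] at 22.1 and 71.4 CPM, a count below the background. Of 10 interferon gamma response genes, 4 were higher and 0 lower, namely Igtp, Iigp1, Irf8 and Gbp7, the last at 2.66 and 6.45 CPM, a ratio of 2.43 [1.66 to 3.65]. Ctss separated the epithelial classes in the same direction as H2-DMb1. In C1q-free progesterone cells it was at 15.3 CPM in luminal-like and 1.43 CPM in squamous-like cells, a ratio of 10.7 [7.17 to 16.4]. B2m was at 164 and 71.4 CPM in these classes, a ratio of 2.29 [2.13 to 2.46].

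The pattern of Cd74 over 15 pairs of class and library, as Pearson's r of log2(CPM + 10) among 5922 genes, was most like that of H2-Ab1 (0.992) and C1qa (0.991). H2-DMb1 and Ciita stood 55th and 57th, at 0.909 each. Outside the lists and markers the likest genes were Aif1 (0.976), Ly86 (0.944), Pou2f2 (0.942), Pld4 (0.942) and Fam105a (0.939). The pairs share their library and their cells' depth, and most hold little of these genes, so the values are a description only.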

How the data were processed

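Both deposited matrices give raw UMI counts for each gene in each barcode. The authors made these counts with Cell Ranger 3.0.2 on mm10, per the submitters' processing notes, from 10x 3′ v3.1 libraries, per the labels' protocols. The control matrix held 5368 barcodes and 21658684 UMIs, the progesterone matrix 10853 barcodes and 44811069 UMIs. Positions came from GENCODE M21 (GRCm38), which lists 30934 of the 31053 identifiers.

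Barcodes needed 200 genes or more and no more than 20% mitochondrial UMIs. The barcodes with the highest Scrublet scores, 181 control and 680 progesterone, were left out as doublets. Their number was not found by Scrublet but set from library size, at 0.8% for each 1000 barcodes that passed. The cells of both libraries were clustered jointly with scanpy 1.11.5 by the Leiden method at resolution 1, using 2000 variable genes, 30 components and 15 neighbours. The members, the other listed genes and mitochondrial genes took no part in it. Clusters were named from markers, with thresholds set after the clusters were seen. A cluster that scored highest for a class other than luminal or squamous was left unnamed at 2000 CPM of Krt5 or more. Members, lists and rules were chosen with earlier results of these data known.

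For each class and library, UMIs were added up and expressed as CPM. Levels carry exact Poisson intervals, ratios exact conditional binomial intervals and shares exact Clopper-Pearson intervals, at 95%, for counting error only. A count of 0 allows up to 3 counts. A gene was measured with at least 20 UMIs over both sides and called at 2-fold; log2 medians had 0.5 added to each count. Listed genes were described in full at 2-fold and 100 UMIs, at most 5 per list and class. Listed genes below that, named to spell out a count of 5 or fewer, and Ctss and B2m in the luminal over squamous comparison, were chosen after their values were seen. With 1 library per group no test was possible. The calling was tested on simulated data. Alternatives changed the doublet, cell and cluster choices, the scaling, thinning, keratin limit and C1q rule.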

Additional observations from a re-analysis of the deposited data

How the results depend on the processing

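No paired analysis was possible because each group is 1 library, and for the same reason no replicate could be left out. Of 380 values recomputed under the alternatives, 190 stayed within their counting interval, 190 moved and 0 of those past 2-fold changed sign. Leaving out mitochondrial, ribosomal protein and the most abundant genes from the scaling moved each log2 ratio in macrophage-like cells by 0.26. Limits on keratin of 0.5% and 2%, the C1q minimum of 2 UMIs and the exclusion of cells with 5 or more member UMIs were chosen after seeing the data. The cause of each shift below was not tested.

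The 7 genes summed in control macrophage-like cells (35061 CPM) came to 37383 at resolution 2, 33403 with libraries clustered apart, 37641 as a mean over cells, 28481 without doublet removal, 54168 with the other scaling and 37173 with the stricter cell filter. In progesterone (30008 CPM) the same settings gave 62177, 42855, 42714, 25578, 55626 and 63256. The log2 ratio of the sums, -0.22, became 0.73, 0.36, 0.18, -0.16, 0.038 and 0.77. It was 0.71, 0.30 and -0.17 with at most 0.5%, 1% and 2% keratin, and 0.12 with at least 2 C1q UMIs. Resolution 2, the stricter filter and libraries apart each left unnamed, by the Krt5 limit, a cluster that scored highest for macrophage markers. These clusters held 201, 49 and 232 progesterone cells.

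C1q-free luminal-like Cd74 in control (6.19 CPM) came to 12.5 over all cells, 10.02 with the other scaling and 11.02 when cells were thinned before the C1q rule. In progesterone (16.0 CPM) these gave 42.8, 27.3 and 25.3, with 11.8 in cells of fewer than 5 member UMIs, 10.9 in cells free of 8 leukocyte genes and 12.8 with the stricter filter. Squamous-like Cd74 in control (7.97 CPM) came to 10.8 over all cells, 16.0 by scaling, 5.01 with fewer than 5 member UMIs, 4.77 without leukocyte genes and 5.85 with the stricter filter. In progesterone (17.5 CPM) it came to 37.2, 39.1, 12.02 and 12.6 for the first 4 of these, 20.1 with libraries apart and 22.97 after thinning. Its squamous log2 ratio, 1.13, became 1.78 over all cells, 1.53 with the stricter filter and 1.79 after thinning.

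H2-DMb1 moved less. Its luminal over squamous log2 ratio in progesterone, 1.41, became 1.72 with libraries apart and 1.02 with the other scaling. Its luminal level there (23.8 CPM) moved with scaling alone, to 40.7. Its squamous level came to 5.17 by scaling and 3.68 after thinning in control, and to 7.68 with libraries apart, 19.99 by scaling and 7.32 with the stricter filter in progesterone. The squamous log2 ratio, 1.79, became 1.20 with libraries apart and 1.21 after thinning. Its luminal log2 ratio, 2.81, stayed within its interval under all alternatives run.

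Shares moved with depth. H2-DMb1 in C1q-free progesterone luminal-like cells (4.89%) was read in 10.8% without thinning, 2.13% at 1000 UMIs and 9.27% at 4000 UMIs. Cd74 in macrophage-like cells (93.1% control, 76.5% progesterone) was read in 98.1% and 100.0% at resolution 2, and in progesterone in 92.4% with libraries apart, 89.3% without thinning and 100.0% with the stricter filter. Without the filter on low counts, the medians of the 3 other lists stayed within a band as wide as the counting interval of a typical single listed gene. That band is wide and does not show that the medians were stable. For the class II accessory genes in macrophage-like cells the median log2 ratio went from -0.42 over 9 genes to -1.10 over 15. The median of all genes went from -0.20 to -0.07. Control epithelial values rest on few UMIs, 11 for luminal H2-DMb1, which limits every ratio to control there.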
